A study of Mus musculus with 22 samples.

Results

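The proximal 10 Mb of chromosomes 2, 4, 5, 6, 7, 10, 11, 13 and 17 were examined in whole mouse testis for the phosphorylated histone γH2AX and the histone variant H3.3. These are the centromere-near ends of the autosomes that take part in no translocation in these crosses and are not among the chromosomes 15, 16, 18 and 19. The members were chosen by position alone: all 50 kb windows of these 9 chromosomes that start at or after 3 Mb and before 13 Mb in the mm10 assembly, which gives 200 windows a chromosome and 1800 of the 54520 windows in all. The segments hold 615 protein-coding genes, from 38 on chromosome 6 to 181 on chromosome 7. A protein-coding gene lay in 987 of the windows, or 54.8%, against 61.8% of the windows on the rest of the same chromosomes.

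γH2AX is histone H2AX phosphorylated at its tail. It marks DNA breaks early in meiotic prophase and later spreads over chromatin that has not synapsed, above all the X and Y chromosomes in the sex body, where it accompanies transcriptional silencing. H3.3 is the H3 variant that is put into chromatin outside DNA replication, at active genes and in germ cells also at unsynapsed chromatin. A Robertsonian translocation joins a pair of telocentric chromosomes at their centromeres, so that a carrier forms trivalents at meiosis whose centromere-near parts synapse late. All mouse autosomes carry their centromere at one end, and the assembled sequence begins about 3 Mb in.

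For γH2AX, testes of 4-week-old mice were used. The group 1Rb_M holds F1 mice between CBy.RBF-Rb(8.12)5Bnr/J, named first, and B6.SPRET7MOLF12, 1Rb_P those between C57BL/6J, named first, and CBy.RBF-Rb(8.12)5Bnr/J, and both carry 1 translocation, of chromosomes 8 and 12. The group 3Rb holds F1 mice between B6.SPRET7MOLF12 and RBF/Dnj with 3 translocations, which from general knowledge of the RBF/Dn strain join 1 with 3, 8 with 12 and 9 with 14; the labels name the chromosomes of Rb(8.12) only. Each of these groups has 3 libraries, and C57BL/6J (B6), without translocation, has 1. For H3.3, testes of 6-week-old mice were used, with 3 libraries each of the 1Rb cross (the same as 1Rb_M), of 3Rb and of the B6.SPRET7MOLF12 control strain (Cg). The labels do not say that libraries of a group come from separate animals, and every p-value below covers the spread between libraries alone, which may be technical. Whole testis mixes germ cell stages and somatic cells, so a level averages over cells. The groups also differ in strain background, and strain and translocation number cannot be told apart in any comparison of 3Rb with another group. The strain name B6.SPRET7MOLF12 holds SPRET with 7 and MOLF with 12, and SPRET and MOLF are names of wild-derived strains; the labels do not say which parts of chromosomes 7 and 12 come from them. Cg is this strain, 1Rb_M and 3Rb have it as 1 parent, and 1Rb_P and B6 do not, so on chromosome 7 a difference of strain sequence and a difference of the mark cannot be told apart. There is no B6 or Cg group with replicates for γH2AX, so the carriers' γH2AX could be tested only against each other.

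Total counts ran from 21535147 to 128348440 in ChIP libraries and from 11876426 to 51651953 in inputs. A median proximal window held 284 to 1787 counts in the ChIP libraries, a counting error of 2.37% to 5.93%. The libraries 1Rb_M 1 and 2 stood apart: chromosome X took 12.3% of their γH2AX counts, against 17.7% to 18.9% in the other 7 carrier libraries and 20.6% in B6. In the inputs it took 3.16% to 3.17%, so the sex body signal of spermatocytes was present in every γH2AX library. Those 2 libraries also had lower γH2AX on the proximal ends of 8 and 12, with a mean log2 ratio of 0.65 and 0.56 against 1.08 in 1Rb_M 3. Results against 1Rb_M are therefore also given without them, that is with 1Rb_M 3 as the only library of its group. That library is assumed to vary like the others. The median log2 difference of 3Rb over all windows was then 0.024, to be set beside the medians given below. This setting was chosen after the data were seen. The 3 input libraries have 1 library each, and the label of the 1Rb_M input names the parents of the 1Rb_P cross.

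The promoters below, from RefSeq on GRCm38.p6, belong to genes of 4 windows on which the results turn. They are shown because they hold very different numbers of the dinucleotide CG, in capitals, and because those of the receptor genes Vmn2r44 and Vmn2r35 are close copies of each other, which bears on how reads can be placed there. Each run has 300 bases around the gene's start, read 5′ to 3′ on the gene's strand. Vmn2r44 (chr7:8383189-8383488, minus strand) lies in the window with the largest H3.3 excess of 3Rb over Cg among the named ones. Vmn2r35 (chr7:7819818-7820117, minus strand) lies in a window with higher γH2AX in 3Rb. Tiam2 (chr17:3396957-3397256, plus strand) lies in a window with lower γH2AX in 3Rb, and Zscan4c (chr7:11005495-11005794, plus strand) in one with lower H3.3 in both carrier groups.
Vmn2r44: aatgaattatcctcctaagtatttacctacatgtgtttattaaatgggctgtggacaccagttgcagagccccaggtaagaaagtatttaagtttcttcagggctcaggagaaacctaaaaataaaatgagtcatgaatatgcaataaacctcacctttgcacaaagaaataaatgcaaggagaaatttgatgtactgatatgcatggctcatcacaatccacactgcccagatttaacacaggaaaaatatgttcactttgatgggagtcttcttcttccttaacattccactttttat
Vmn2r35: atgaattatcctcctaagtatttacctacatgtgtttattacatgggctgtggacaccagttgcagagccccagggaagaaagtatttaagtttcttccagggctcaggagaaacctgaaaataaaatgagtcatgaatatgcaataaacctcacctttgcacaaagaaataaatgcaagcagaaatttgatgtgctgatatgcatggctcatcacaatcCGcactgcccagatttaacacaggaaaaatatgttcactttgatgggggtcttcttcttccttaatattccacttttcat
Tiam2: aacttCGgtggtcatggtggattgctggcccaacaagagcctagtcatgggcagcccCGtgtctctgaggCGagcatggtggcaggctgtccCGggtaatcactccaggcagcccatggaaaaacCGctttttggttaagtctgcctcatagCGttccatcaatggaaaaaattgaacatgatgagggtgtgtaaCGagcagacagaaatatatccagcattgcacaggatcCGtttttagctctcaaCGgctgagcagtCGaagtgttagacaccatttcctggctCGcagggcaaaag
Zscan4c: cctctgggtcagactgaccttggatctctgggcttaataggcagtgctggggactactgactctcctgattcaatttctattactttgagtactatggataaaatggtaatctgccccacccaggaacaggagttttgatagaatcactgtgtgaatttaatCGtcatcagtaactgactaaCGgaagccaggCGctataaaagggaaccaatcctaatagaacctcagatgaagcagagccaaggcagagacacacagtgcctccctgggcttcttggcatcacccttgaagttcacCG
Vmn2r44 holds 0 CG, Vmn2r35 1, Zscan4c 4 and Tiam2 11, against a median of 7 in all 32851 promoters of the table. The promoters of Vmn2r44 and Vmn2r35 differed by 11 single-base edits, an identity of 96.3%. Among 54 vomeronasal receptor genes of the chromosome 7 segment with a promoter in the table, 25 had another with at least 90% identity, and 23 of these were of the type 2 family. Their counts are uncertain to the extent that reads were split between copies.

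The unjoined proximal segments had nearly the γH2AX level of the rest of their chromosomes in every group. Per library and chromosome, the level was measured as the log2 ratio of proximal to remaining counts, divided by the same ratio in the 3 pooled inputs, without the 12 windows whose input was over 5 times or under 0.2 times the median. Averaged over the 9 chromosomes it was 0.061 ± 0.009 in 1Rb_M, 0.037 ± 0.009 in 1Rb_P and 0.099 ± 0.006 in 3Rb (SD, n = 3 each), and 0.050 in the single B6 library. Over the joined chromosomes 8 and 12 the same mean was 0.76 ± 0.28, 0.89 ± 0.02 and 0.70 ± 0.03 in these carriers, and 0.007 in B6. In each of the 9 carrier libraries all 9 unjoined segments lay below both joined ones: the highest unjoined value was 0.24 and the lowest on 8 or 12 was 0.52. In 3Rb, where 1, 3, 9 and 14 are joined too, 1, 3 and 9 lay above all 9 unjoined segments in each library, at 0.29 to 0.61. Chromosome 14 lay below all 9, at -0.12, -0.099 and -0.054. The difference of the means from 8 and 12, -0.72 ± 0.18 (SD, n = 9), had the same sign in 9 of 9 libraries, with an exact two-sided sign-flip permutation p of 0.00391, the smallest that 9 libraries allow.

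**Figure D1:**
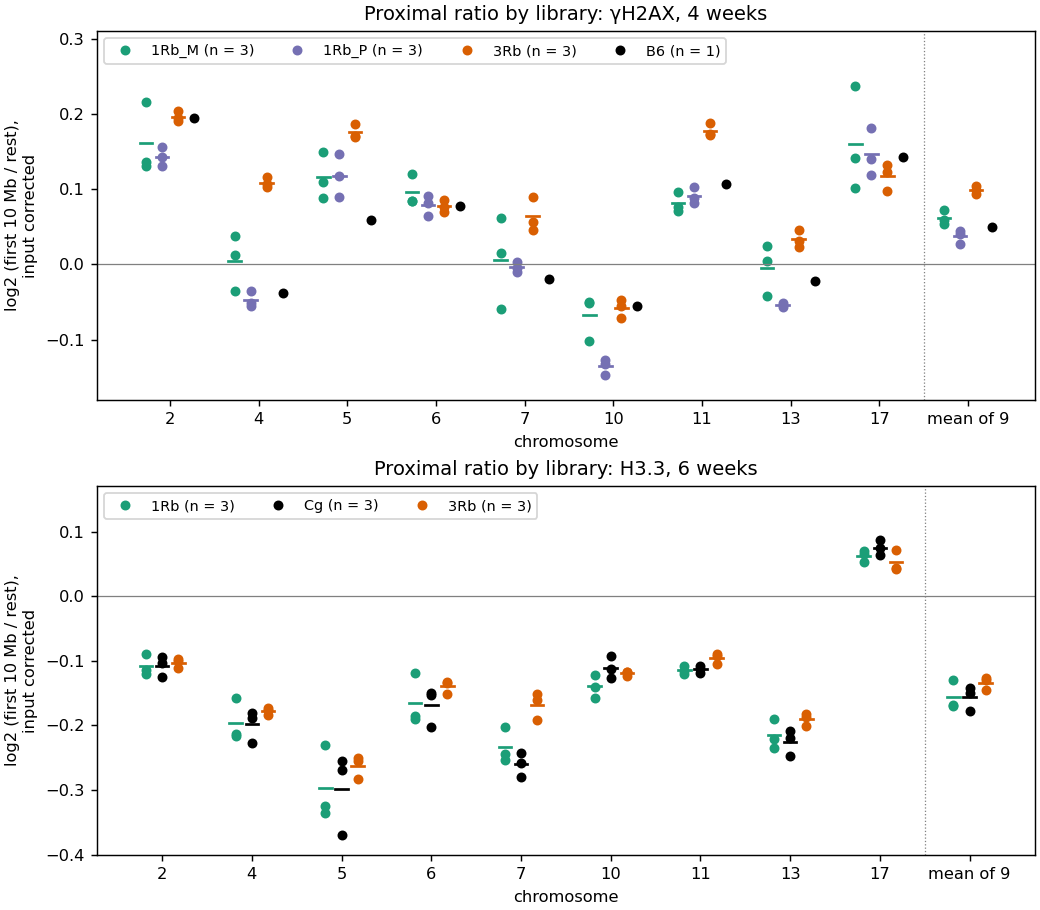
The log2 ratio of the first 10 Mb to the rest of each chromosome, corrected by pooled input, for each library (points) and group mean (bars), for γH2AX (top) and H3.3 (bottom). The 3Rb γH2AX points lie above all points of both 1Rb crosses on chromosomes 4, 5 and 11 and for the mean of 9, and H3.3 lies below 0 on every chromosome but 17.

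The 9 segments differed in level. Chromosome 2 was highest in 3Rb and had ratios of 0.191, 0.205 and 0.195 in the 3 libraries, with 0.130 to 0.216 in the other carriers and 0.195 in B6. Chromosome 10 was lowest, below 0 in all 10 libraries, from -0.15 to -0.047. Chromosomes 5, 6, 11 and 17 were above 0 in all 10 libraries too, while 4, 7 and 13 fell on either side of 0. B6 lay inside the range of the 9 carrier libraries on 8 of the 9 chromosomes. On chromosome 5 it was at 0.059, below all 9 carriers, the lowest of which was at 0.088.

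The ratio of proximal to remaining γH2AX was slightly higher in the carriers of 3 translocations than in the carriers of 1. With the library scaling used here, most of that difference lay in the rest of the chromosomes. The 3Rb ratios were at 0.093, 0.099 and 0.105, and the 6 libraries of both 1Rb crosses at 0.028 to 0.072, so that the groups did not overlap. The difference was 0.050 (pooled SD 0.013), with an exact two-sided permutation p of 0.0238, the smallest that 3 against 6 libraries can give. Taken apart after the data were seen and scaled to the whole library, the mean proximal level of the 9 differed by 0.017 (exact permutation p = 0.31) with overlapping libraries. The mean level of the rest of these chromosomes was lower in 3Rb by -0.033, with all 3 libraries below all 6 (exact permutation p = 0.0238). Unlike the ratio, these parts depend on the scaling. Library totals in its place moved the median difference of all windows against 1Rb_M from 0.014 to -0.085, more than either part. The split under other scalings was not tested. Without 1Rb_M 1 and 2 the ratio difference was 0.058 (exact permutation p = 0.0571, again the smallest possible), and with the windows of unusual input kept 0.033 (exact permutation p = 0.0238). Taken one by one, 3 of the 9 chromosomes had 3Rb libraries all above both 1Rb crosses, against 42.1% of the 19 autosomes, joined ones included, so that count is no more than the autosomes gave as a whole.

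On chromosome 4, which carries the kinase gene Mos, the 3Rb libraries were at 0.10, 0.12 and 0.11 and the 1Rb libraries at -0.055 to 0.038, a difference of 0.13. There, with the same scaling, the proximal level was higher in 3Rb by 0.087 and the rest lower by -0.043, each without overlap. On chromosome 11, which carries the meiotic axis gene Hormad2, they were at 0.17, 0.19 and 0.17 against 0.071 to 0.10, a difference of 0.092. Its proximal level differed by 0.013 (exact permutation p = 0.405) and its rest by -0.079 (exact permutation p = 0.0238). On chromosome 5 the 3Rb libraries were at 0.17, 0.17 and 0.19 against 0.088 to 0.15, a difference of 0.059, with a proximal level that differed by -0.00062 (exact permutation p = 0.976) and a rest that differed by -0.060 (exact permutation p = 0.0238). The edgeR test of the rest gave adjusted p of 0.000127 and 0.00135 on chromosome 11 and 0.00111 and 0.00703 on 5, against 1Rb_M and 1Rb_P. For the ratios of these 3 chromosomes the exact permutation p was 0.0238 and 0.0714 when adjusted over the 9 chromosomes, so none passed 0.05. With the 2 windows of Sfi1 at the start of chromosome 11 kept in, a gene whose repeated copies take 22.4% of that segment's input, the difference on 11 was 0.025 (exact permutation p = 0.381). Chromosomes 2, 7, 10 and 13 differed by 0.044 to 0.063 with overlapping libraries, and 6 and 17 by -0.010 and -0.036. The 2 crosses with 1 translocation differed by -0.024 (1Rb_P minus 1Rb_M, exact permutation p = 0.1, the smallest that 3 against 3 allow).

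Relative to the rest of the chromosome, the excess of 3Rb over both 1Rb crosses lay mostly in the outer 5 Mb and went on beyond the segments. Near the start, at 3 to 4 Mb, the mean γH2AX level over the 9 chromosomes was -0.10 in 3Rb, -0.11 in 1Rb_P, -0.043 in 1Rb_M and -0.056 in B6. It rose with distance in every group, to 0.21 ± 0.004 at 11 to 12 Mb in 3Rb, against 0.11 ± 0.02 in 1Rb_P, 0.11 ± 0.008 in 1Rb_M (SD, n = 3 each) and 0.13 in B6. From 13 to 19 Mb 3Rb still had 0.12 to 0.16, the 1Rb crosses 0.034 to 0.10 and B6 0.037 to 0.12. By 24 to 25 Mb all groups were between -0.006 and 0.024. In 1 Mb bins, the 3Rb libraries were all above both 1Rb crosses in 9 of 45 bins between 3 and 8 Mb and in 22 of 45 between 8 and 13 Mb, against 23.4% of all autosomal bins, and all below them in 10 of the 90, against 25.4%. The 9 carrier libraries were all above B6 in 12 of the 90 bins and all below it in 11, against 19.4% and 13.8%.

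**Figure D2:**
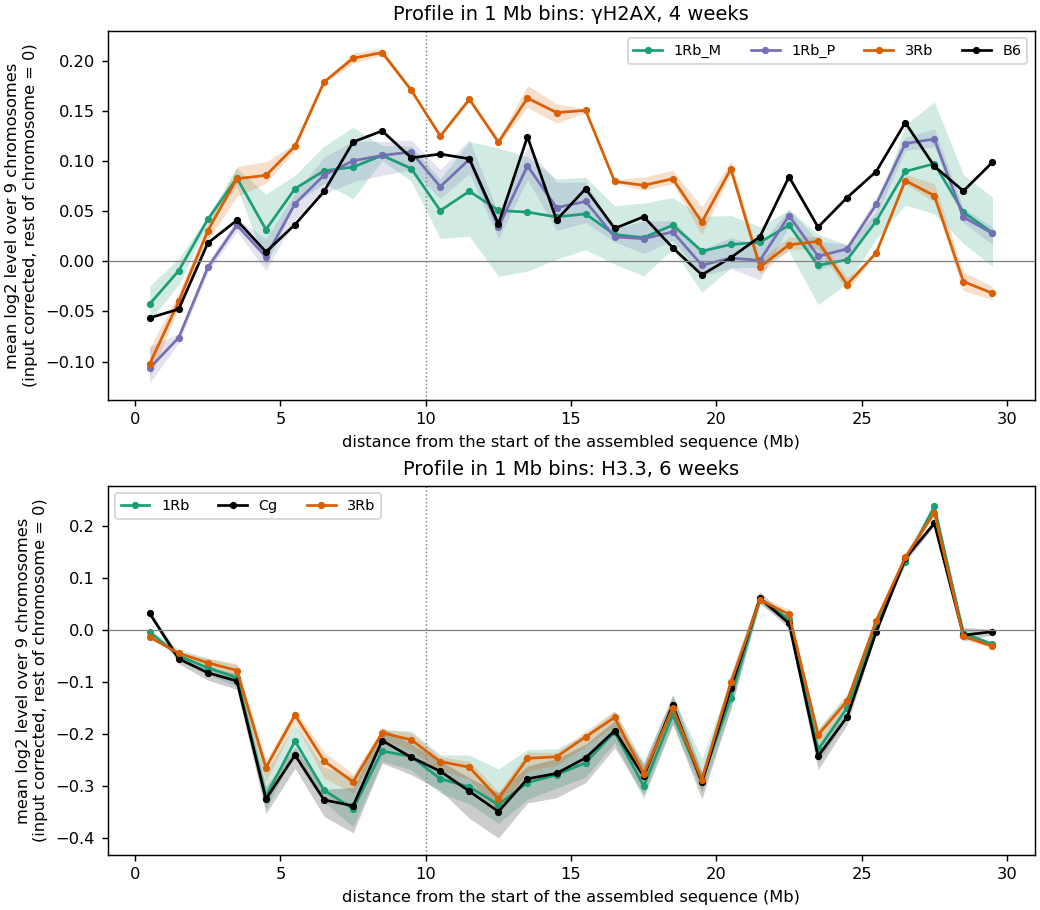
Mean log2 level over the 9 chromosomes in 1 Mb bins against distance from the start of the assembled sequence, with 0 as the level of the rest of the chromosome, for γH2AX (top) and H3.3 (bottom); lines are group means, bands run from the lowest to the highest library and the dotted line ends the 10 Mb. The 3Rb γH2AX line lies above both 1Rb lines from 4 to 21 Mb from the start, while the H3.3 lines run close together.

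The rise from the inner to the outer 5 Mb was 0.17, 0.16 and 0.15 in the 3Rb libraries and 0.099 in B6. It was 0.057, 0.086 and 0.067 in 1Rb_M and 0.103, 0.126 and 0.135 in 1Rb_P. The 1Rb crosses, with the same number of translocations, thus did not overlap each other either. 3Rb exceeded the 1Rb crosses by 0.068 in this measure (exact two-sided permutation p = 0.0238, 3 against 6), a test chosen after the profile was seen. The excess over the inner 5 Mb alone was 0.015 (exact permutation p = 0.452). Chromosome 4 was different in that its 3Rb libraries were above both 1Rb crosses in 10 of 10 bins, by a mean of 0.15 in the inner and 0.11 in the outer 5 Mb. Chromosome 17 had 5 bins in which 3Rb was below both crosses and 1 above, and over its inner 5 Mb 3Rb was lower by -0.13 (exact permutation p = 0.0238, not adjusted over chromosomes).

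Summed over a segment and scaled to the whole library, γH2AX differed on few of the unjoined segments. Against 1Rb_M, 3Rb rose on chromosome 13, with 15.3, 15.1 and 15.2 CPM (counts scaled by library size) a window against 14.5, 14.7 and 13.6 (log2 difference 0.09 ± 0.03 SE, edgeR adjusted p = 0.0326 over 40 segments). It fell on chromosome 17, with 15.78, 16.11 and 16.04 against 17.29, 16.59 and 18.04 (-0.115 ± 0.034 SE, edgeR adjusted p = 0.0241). That is 1 of 9 higher and 1 lower, against 25.0% and 22.5% of the 40 segments. The rest of both chromosomes moved the same way, 13 by 0.052 (edgeR adjusted p = 0.0149) and 17 by -0.072 (edgeR adjusted p = 0.000293). Against 1Rb_P it rose on chromosome 4, with 14.5, 14.6 and 14.4 against 13.3, 13.3 and 13.4 (0.12 ± 0.03 SE, edgeR adjusted p = 0.00705), and again on 13 (0.13 ± 0.03 SE, edgeR adjusted p = 0.00703). That is 2 of 9 higher and 0 lower, against 27.5% and 15% of segments. The rest of 13 rose too, by 0.043 (edgeR adjusted p = 0.0372), while the rest of 4 differed by -0.036 (edgeR adjusted p = 0.0479). Scaled by library totals, which let the X chromosome share in, the values on 4 and 13 against 1Rb_P were 0.10 and 0.12 with edgeR adjusted p = 0.309 and 0.289, and that on 13 against 1Rb_M turned to -0.012. Leaving out any 1 of the 3Rb libraries ended both calls against 1Rb_M (edgeR adjusted p 0.0546 to 0.105), and so did leaving out 1Rb_M 1 for chromosome 17 (0.0565). Without 1Rb_M 3 the value on 13 was 0.056 (edgeR adjusted p = 0.00928).

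Window by window, 3Rb differed from 1Rb_M in 426 of the 1793 proximal windows tested, 191 higher and 235 lower (edgeR quasi-likelihood test, adjusted p under 0.05 over all windows). This is 10.7% higher and 13.1% lower, against 17.9% and 20.2% of all windows, so fewer than elsewhere in both directions. Against 1Rb_P, 178 windows were higher and 91 lower, or 9.93% and 5.08% against 10.1% and 12.8% of all windows. Against 1Rb_M scaled by library totals the split was 25 higher and 461 lower. Against 1Rb_P library totals gave 72 and 89. Leaving out 1 library gave 272 to 572 calls against 1Rb_M, over 1.5 times fewer without 3Rb 1 (272) or 3Rb 2 (279), and 124 to 221 against 1Rb_P, where leaving out 1Rb_P 1 or 2 or any 3Rb library cut the count by over 1.5 times. The direction went with gene content, as it did over all windows. Against 1Rb_M, of 806 proximal windows with no gene 12.3% were higher and 6.33% lower, against 21% and 13.8% of all windows with no gene. Of 67 proximal windows with 3 or more genes 1 was higher and 27 lower (40.3%), against 6.43% and 44.5% of all such windows. Without 1Rb_M 1 and 2 the median log2 difference was 0.12 with no gene and -0.20 with 3 or more. With all libraries it was 0.036 and -0.11. Against 1Rb_P 88 were higher and 10 lower with no gene, and 2 and 21 with 3 or more (31.3% lower, against 36.4% of all such windows).

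**Figure D3:**
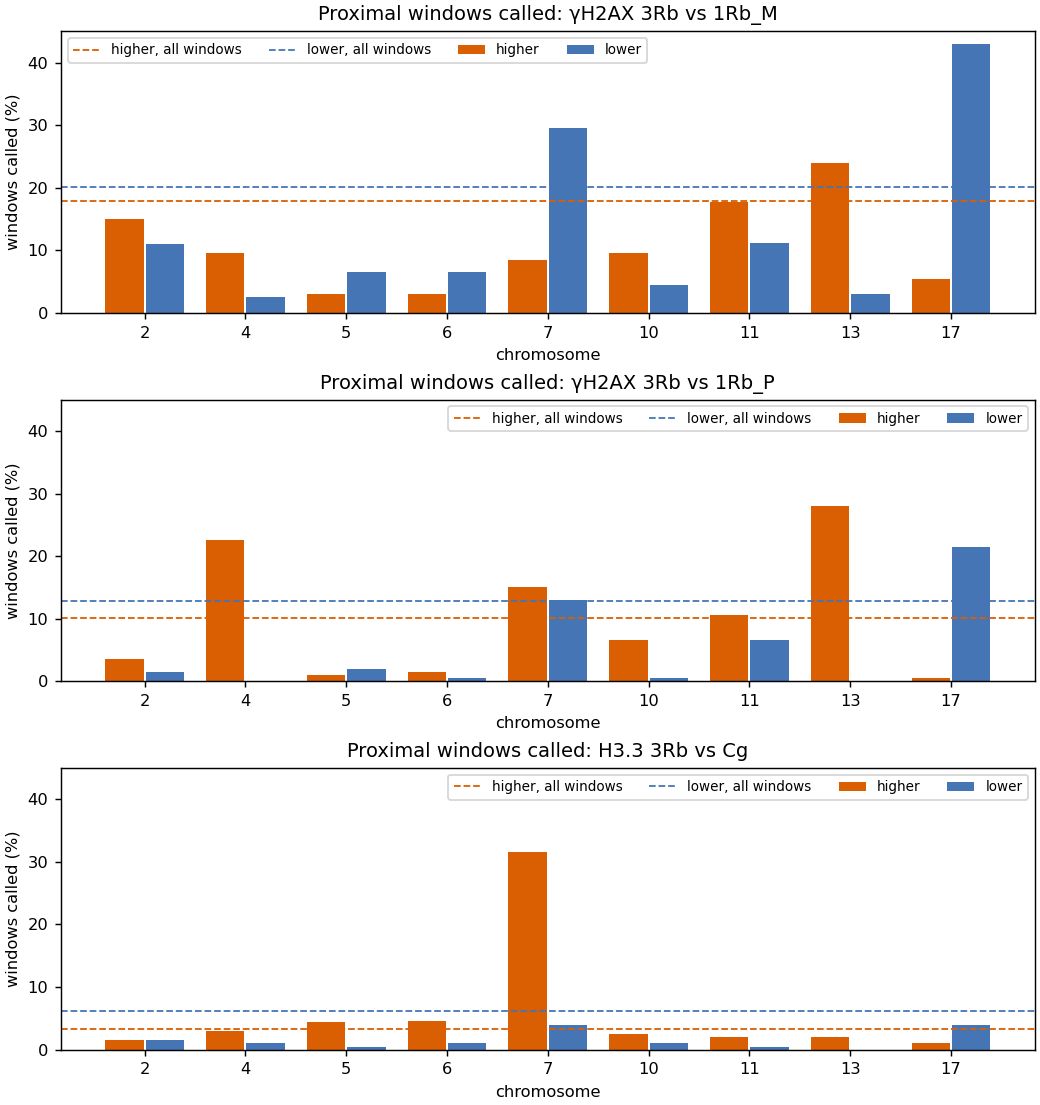
Percent of proximal windows with higher (orange) and lower (blue) signal in the first-named group at an edgeR adjusted p under 0.05, by chromosome, with the percent of all windows as dashed lines. For higher γH2AX chromosome 13 stands above the line in both comparisons and 4, 7 and 11 against 1Rb_P, for lower γH2AX chromosomes 7 and 17 in both, and for higher H3.3 chromosomes 5, 6 and 7.

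The calls were spread unevenly over the chromosomes, in part along with the rest of the same chromosome. Over all windows 17.9% were higher and 20.2% lower against 1Rb_M, and 10.1% and 12.8% against 1Rb_P. On chromosome 17, 86 of 200 windows (43%) were lower than in 1Rb_M and 43 (21.5%) lower than in 1Rb_P. In its rest 33.4% and 21.3% were lower. On 13, 48 (24%) and 56 (28%) of 200 were higher, against 30.7% and 15.7% of its rest. On 4, 19 (9.55%) and 45 (22.6%) of 199 were higher, against 8.86% and 4.38% of its rest. On chromosome 7, 17 (8.5%) were higher and 59 (29.5%) lower of 200 against 1Rb_M, and 30 (15%) and 26 (13%) against 1Rb_P. Its rest had 2.80% higher and 42.5% lower, then 3.55% and 18.6%. Chromosome 11 had 35 higher and 22 lower of 198, then 21 and 13, and chromosome 2 had 30 and 22 of 199, then 7 and 3. Without 1Rb_M 1 and 2 the median log2 difference against 1Rb_M was -0.18 on 17, 0.19 on 13 and 0.16 on 4. On 7 it turned from -0.062 to 0.089. On chromosomes 5 and 6 no more than 13 windows a direction were called in either comparison with all libraries.

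Among the windows with more γH2AX in 3Rb, several lay inside single genes. Windows were named only where the libraries of the groups compared did not overlap. That those named against 1Rb_M kept their direction without 1Rb_M 1 and 2 follows from this rule. At Gm34768, a predicted gene at 11.9 Mb on chromosome 2, the values were 17.5, 17.6 and 19.1 CPM in 3Rb, 14.5, 14.2 and 14.6 in 1Rb_M and 14.04, 13.17 and 14.95 in 1Rb_P (log2 differences 0.33 ± 0.06 and 0.36 ± 0.06 SE). Inside Ryr2 on chromosome 13, which encodes the heart's calcium release channel, they were 16.3, 17.1 and 17.7 against 14.6, 13.8 and 13.4 and against 13.4, 14.4 and 13.3 (0.29 ± 0.06 and 0.31 ± 0.06 SE). All 3 libraries of 3Rb were above all 6 of the 1Rb crosses at both windows, which the naming rule required in the comparison that named each. At Zpbp on chromosome 11, which encodes an acrosomal protein that binds the egg coat, 3Rb had 19.9, 18.8 and 20.3 against 15.5, 15.6 and 16.4 in 1Rb_M (0.31 ± 0.06 SE, edgeR adjusted p = 0.000205). Dip2c on 13 (0.31 against each cross, in neighbouring windows), Tmem67 with Rbm12b2 on 4 (0.25 against 1Rb_M), and Car8 and Rps20 on 4 (0.35 and 0.31 against 1Rb_P) rose by similar amounts. Car8 encodes a carbonic anhydrase-related protein, Tmem67 a cilium protein and Rps20 a ribosomal protein.

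Windows with less γH2AX in 3Rb had differences of similar size. At Tiam2 on chromosome 17, a Rac activator whose promoter is shown above, the values were 15.01, 14.58 and 15.70 in 3Rb, 21.1, 19.1 and 21.4 in 1Rb_M and 20.7, 19.3 and 20.4 in 1Rb_P (-0.44 ± 0.07 and -0.41 ± 0.07 SE). At Cdk6 on chromosome 5, a cell cycle kinase gene, they were 12.6, 12.4 and 12.4 against 16.8, 16.2 and 15.1 and against 15.4, 15.5 and 14.7 (-0.36 ± 0.06 and -0.29 ± 0.06 SE). The 3Rb libraries were below all 6 others at both, which the naming rule in part required. The window of the kinase genes Sbk2 and Sbk3 on chromosome 7 fell by 0.42 against 1Rb_M, and Inpp5j with Selenom on 11, and Gmfg-ps with the synaptic scaffold gene Ppp1r9a on 6, fell by 0.37 and 0.42 against 1Rb_P. Frmd4a on 2 fell by 0.27 against 1Rb_M. At the window of Ppp1r9a the B6 input was also higher, 31.3 CPM against 20.6 and 20.4 in the 1Rb_M and Cg inputs, and its part in the result was not tested.

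On chromosome 17 many of the lower windows lay in runs, chosen after their values were seen. In the longest run against 1Rb_P, from 4.75 to 6.0 Mb, from Arid1b, a subunit of the BAF chromatin remodeler, to Zdhhc14 and Synj2, 24 of 25 windows were lower than in 1Rb_M and 21 lower than in 1Rb_P, with medians of -0.28 and -0.21. The first of these medians was -0.37 without 1Rb_M 1 and 2. In the rest of that segment 62 of 175 were lower against 1Rb_M and 22 against 1Rb_P. Of these, 24 and 8 lay among 31 windows from 6.55 to 8.1 Mb, which hold the dynein light chain genes Dynlt1c and Dynlt1f and the radial spoke gene Rsph3b. Their medians were -0.22 and -0.13, and the first was -0.31 without 1Rb_M 1 and 2. At Zdhhc14, a palmitoyltransferase gene, 3Rb had 12.3, 11.6 and 12.2 against 14.9, 15.1 and 16.1 in 1Rb_P (-0.35 ± 0.06 SE). Outside both runs Pde10a, a phosphodiesterase gene, fell by 0.29 ± 0.06 SE against 1Rb_M. In the run around Zdhhc14 the 1Rb_M and Cg inputs were at a median log2 of -0.10 and -0.20 against the B6 input, and 1Rb_M at 0.044 against Cg. The B6.SPRET7MOLF12 and RBF/Dnj parents differ from C57BL/6J and from each other in sequence, so windows where reads map differently by strain cannot be told apart from windows where the mark differs.

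**Figure D4:**
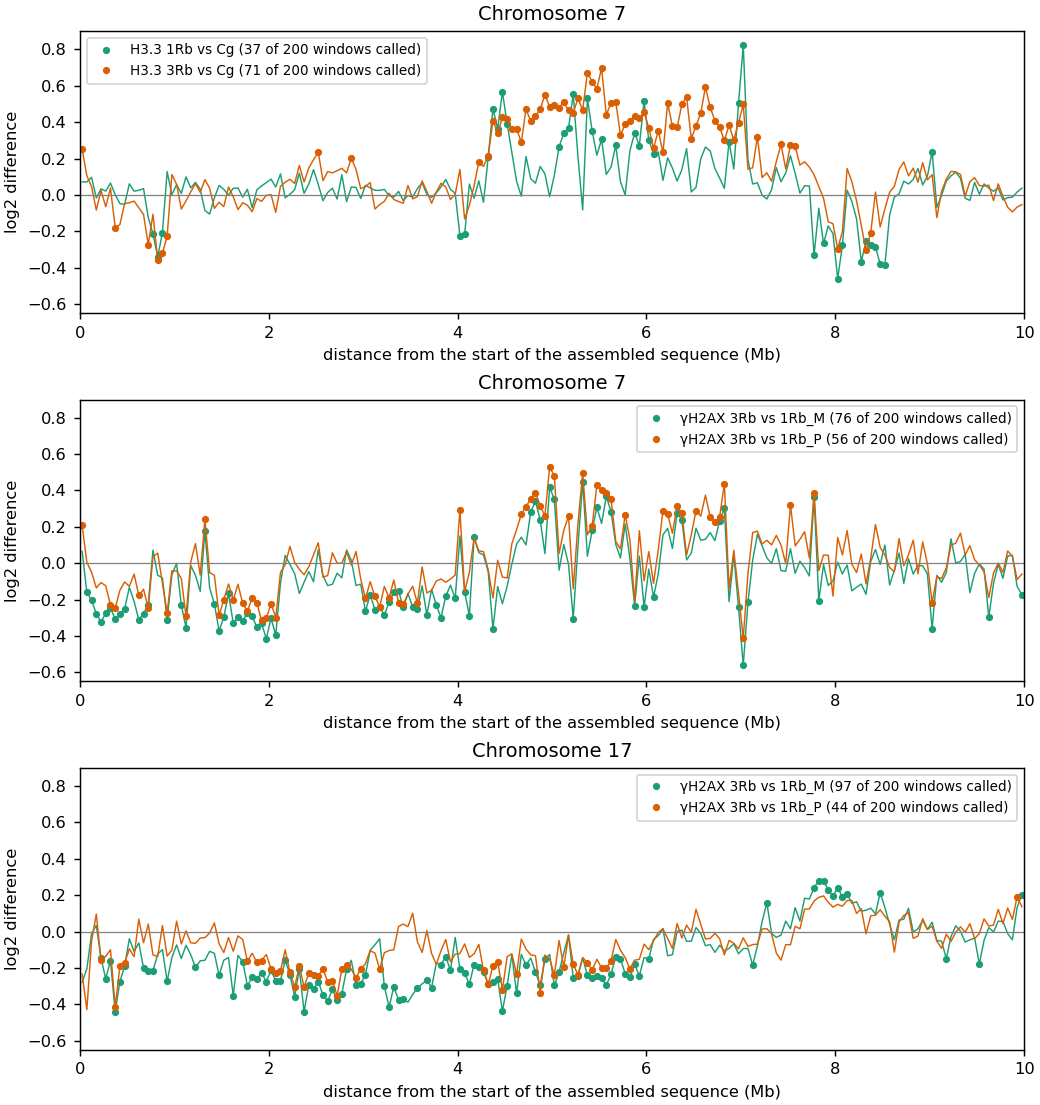
Log2 difference per 50 kb window against distance from the start of the assembled sequence on chromosome 7 for H3.3 (top) and γH2AX (middle) and on chromosome 17 for γH2AX (bottom); dots mark windows with an edgeR adjusted p under 0.05. On chromosome 7, 56 of 57 windows of the vomeronasal receptor stretch have more H3.3 in 3Rb than in Cg, and on chromosome 17 most windows with lower γH2AX in 3Rb lie in the inner part.

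The gene families of the segments are given by their counts, to be read against the 17.9% of all windows higher and 20.2% lower against 1Rb_M, and the 10.1% and 12.8% against 1Rb_P. The lists were made with earlier results of these data known, and no test compared them. Among 61 windows with vomeronasal receptor genes, which encode pheromone receptors and all but 1 of which lie on chromosome 7, 6 rose and 10 fell against 1Rb_M (9.84% and 16.4%), while 11 rose and 3 fell against 1Rb_P (18% and 4.92%). Their median log2 difference was -0.004 and 0.068, against 0.008 and 0.044 over all proximal windows. Without 1Rb_M 1 and 2 the median against 1Rb_M was 0.17, so this list turned with those libraries. Of 40 windows with zinc finger genes 3 rose and 13 fell against 1Rb_M (32.5% lower) and 0 and 8 against 1Rb_P (20% lower), among them Zfp579 (11.4 ± 0.5 CPM in 3Rb against 15.2 ± 0.6 and 14.03 ± 0.58). The median of this list against 1Rb_M was -0.050, and 0.041 without 1Rb_M 1 and 2.

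Of 58 windows with imprinted genes, 1 rose and 18 fell against 1Rb_M (31% lower) and 0 and 5 against 1Rb_P (8.62% lower, below the share of all windows). The median against 1Rb_M was -0.047, and -0.038 without 1Rb_M 1 and 2. Of 15 windows with genes for NLRP and leukocyte receptors 1 was higher and 6 lower against 1Rb_M (40% lower), and 1 and 4 against 1Rb_P (26.7% lower). Here the median against 1Rb_M was -0.14, and -0.039 without 1Rb_M 1 and 2. Windows with olfactory receptor genes were lower in 3 and 2 of 4. Their median went from -0.24 against 1Rb_M to -0.16 without those libraries.

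Genes of meiosis and spermatids were called in both directions. Of 26 windows, 6 rose and 2 fell against 1Rb_M (23.1% and 7.69%), and 4 and 1 against 1Rb_P (15.4% and 3.85%). Their median log2 difference against 1Rb_M was 0.058, and 0.034 without 1Rb_M 1 and 2. Hormad2, whose protein coats unsynapsed chromosome axes, was at 17.8 ± 0.6 CPM in 3Rb, 15.3 ± 0.7 in 1Rb_M and 14.7 ± 0.4 in 1Rb_P (0.22 ± 0.06 and 0.27 ± 0.06 SE, n = 3 each). Spata48 rose by 0.24 against 1Rb_M and Mos by 0.21 against 1Rb_P, while Tcp10a, a t complex gene expressed in testis, fell by 0.29 against each. Of 26 windows with t complex genes 3 rose and 6 fell against 1Rb_M (23.1% lower), and 1 and 3 against 1Rb_P (11.5% lower). Both shares were near that of all windows lower. For t complex genes the median against 1Rb_M was 0.006, and -0.12 without 1Rb_M 1 and 2. No window of the 4 with the DNA damage genes Dclre1c, Ewsr1 and Polm passed the test in any γH2AX comparison with all libraries. They had a median of -0.009 against 1Rb_M, and of -0.089 without 1Rb_M 1 and 2. At Dclre1c, which encodes the Artemis nuclease, the highest value was 17.2 ± 0.9 CPM in 3Rb against 15.7 ± 0.3 and 15.3 ± 1.5 (edgeR adjusted p = 0.0901 and 0.0514).

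Of 63 windows with developmental regulators 5 rose and 12 fell against 1Rb_M (7.94% and 19%), with the homeobox pair Dlx5 and Dlx6 on chromosome 6 at 11.8 ± 0.2 against 14.5 ± 0.9 CPM. Against 1Rb_P 9 rose and 6 fell (14.3% and 9.52%), with Plag1 on 4 at 16.5 ± 0.2 against 13.6 ± 0.6 CPM. The list's median log2 difference against 1Rb_M was -0.002, and 0.077 without 1Rb_M 1 and 2. Of the 10 windows with AKR1C steroid dehydrogenase genes on chromosome 13, 0 passed against 1Rb_M and 2 were higher against 1Rb_P. Their median went from 0.091 against 1Rb_M to 0.23 without 1Rb_M 1 and 2.

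Between the crosses with 1 translocation, whose labels name the Rb(8.12) parent first and second, 5 of 1793 proximal windows differed, all lower in 1Rb_P (0.279%, against 0.299% of all windows lower and 1.06% higher). They lay at Mthfd1l on chromosome 10, Ryr2 on 13, Nmt2 on 2, Lyn on 4 and in a window without a gene on 17, with log2 differences from -0.23 to -0.40. At Mthfd1l, a mitochondrial folate enzyme gene, 1Rb_P had 11.8, 11.4 and 12.3 CPM and 1Rb_M 14.98, 14.57 and 13.90. The count was 0 without 1Rb_M 1 or without 1Rb_P 2, 1 without 1Rb_P 1 or 1Rb_P 3, 72 without 1Rb_M 2 and 336 without 1Rb_M 3, and it was 137 with 1Rb_M 3 as the only library of its group. No segment passed the test (0 of 9, against 5.0% of the 40 segments in each direction). Leaving out 1 library gave 0 to 5 segments, the highest without 1Rb_M 3.

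H3.3 was lower on the unjoined proximal segments than on the rest of their chromosomes in every group. The mean over the 9 was -0.16 ± 0.02 in 1Rb, -0.16 ± 0.02 in Cg and -0.13 ± 0.01 in 3Rb (SD, n = 3 each). In all 9 libraries 8 of the 9 chromosomes were below 0 and chromosome 17 was above it, at 0.042 to 0.086. Chromosome 5 had -0.37 to -0.23 and was the lowest in 8 of the 9 libraries; in Cg 3 chromosome 7 was slightly lower. Unlike γH2AX, H3.3 fell with distance: the outer 5 Mb lay below the inner 5 Mb in all 9 libraries, by -0.19 to -0.13. Carriers and Cg did not differ beyond their spread (0.011, exact permutation p = 0.429), nor did 3Rb and 1Rb (0.022, exact permutation p = 0.2). Over chromosomes 8 and 12 the same ratio was 0.08 ± 0.01 in 1Rb, 0.04 ± 0.01 in 3Rb and -0.049 ± 0.001 in Cg. Over 1, 3, 9 and 14, joined in 3Rb only, it was -0.238 ± 0.032 in 1Rb, -0.185 ± 0.011 in 3Rb and -0.240 ± 0.026 in Cg. The 9 lay above these by 0.073 ± 0.017 (SD, n = 9) in 9 of 9 libraries. Low proximal H3.3 was therefore not particular to the 9.

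On average the unjoined segments also differed from the proximal ends of chromosomes 15, 16, 18 and 19, which carry ribosomal gene arrays in common strains. Mean γH2AX was higher on the 9 than on these 4 by 0.11 ± 0.03 (SD, n = 9) in 9 of 9 carrier libraries, and mean H3.3 was lower by 0.26 ± 0.03 in 9 of 9 (exact two-sided sign-flip permutation p = 0.00391 each, the smallest possible). All libraries share the same chromosomes, so this p does not compare the 2 sets of chromosomes. In B6 the γH2AX means were 0.050 and -0.043. In 3Rb chromosomes 15 (0.108) and 18 (0.058) lay inside the γH2AX range of the 9, -0.058 to 0.197. Chromosomes 16 (-0.194) and 19 (-0.120) lay below it. Of these 4, chromosome 19 had the highest H3.3, at 0.31 to 0.40.

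H3.3 followed the number of genes in a window more closely than γH2AX did. Windows with no gene had a median log2 H3.3 level over input of -0.29 ± 0.04 in Cg, those with 1 or 2 genes 0.054 ± 0.004 and those with 3 or more 0.67 ± 0.06 (SD, n = 3). In 3Rb these were -0.23 ± 0.02, 0.05 ± 0.01 and 0.64 ± 0.03. For γH2AX the same 3 medians were 0.089 ± 0.008, 0.09 ± 0.01 and -0.026 ± 0.019 in 3Rb, 0.033 ± 0.038, 0.091 ± 0.028 and 0.09 ± 0.12 in 1Rb_M, 0.01 ± 0.02, 0.058 ± 0.009 and 0.04 ± 0.06 in 1Rb_P, and 0.017, 0.076 and 0.10 in B6. Across 1788 windows of 1 library, which share its depth, Spearman's rho with gene number was 0.55 to 0.57 for H3.3 and -0.061 to 0.31 for γH2AX of carriers.

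H3.3 differed between groups on 1 unjoined segment. On chromosome 7, 3Rb had 14.69, 14.97 and 15.10 CPM a window and Cg 14.2, 14.1 and 13.9 (0.09 ± 0.01 SE, edgeR adjusted p = 0.00142), while 1Rb had 14.6, 14.6 and 14.4. That is 1 of 9 segments higher and 0 lower, against 12.5% and 2.5% of the 40. No segment passed for 1Rb against Cg (0 of 9, against 5.0% higher and 0.0% lower) or for 3Rb against 1Rb (0 of 9, against 7.5% and 10%). Without the windows that hold vomeronasal receptor genes the difference on 7 was 0.040 (edgeR adjusted p = 0.0754), an alternative chosen after the values were seen.

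In single windows 3Rb had 105 higher and 27 lower than Cg of 1793, or 5.86% and 1.51% against 3.34% and 6.16% of all windows. Of the 105, 63 lay on chromosome 7, and the other 8 chromosomes had 42 higher and 19 lower of 1593. For 1Rb against Cg 27 were higher and 20 lower (1.51% and 1.12%, against 1.08% and 2.62%), with 37 of the 47 on chromosome 7. For 3Rb against 1Rb 44 were higher and 7 lower (2.45% and 0.390%, against 2.08% and 4.02%), with 39 of the 44 on chromosome 7. That last count was 108 without 1Rb 1 and 29 to 34 without 1Rb 2, 1Rb 3, 3Rb 2 or 3Rb 3. 3Rb against Cg gave 83 calls without 3Rb 2 and 86 without 3Rb 3.

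The chromosome 7 difference lay mostly in 1 stretch from 7.2 to 10.05 Mb, chosen as the longest run of higher windows. It holds the type 2 vomeronasal receptor cluster, from Vmn2r29 and the chloride channel gene Clcn4 to Vmn2r50, on the chromosome whose number stands beside SPRET in the name of the Cg strain. In it, 56 of 57 windows had more H3.3 in 3Rb than in Cg, with a median log2 difference of 0.43, and 21 of 57 had more in 1Rb (median 0.21). Outside it, 7 of 143 windows of the segment were higher and 8 lower in 3Rb. At Vmn2r44 the values were 14.2, 14.9 and 15.2 CPM in 3Rb, 14.1, 12.9 and 13.2 in 1Rb and 9.1, 9.7 and 9.1 in Cg (0.67 ± 0.06 and 0.53 ± 0.06 SE). At Vmn2r50 they were 11.2, 11.9 and 11.7, then 14.9, 15.2 and 13.7, then 8.0, 8.8 and 8.0, so that 1Rb was highest there (0.82 ± 0.07 SE against Cg, edgeR adjusted p = 5.44e-12). Cg was below both carrier groups at both windows without overlap, which the naming rule in part required.

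Of all 61 windows with vomeronasal receptor genes, 32 had more H3.3 in 3Rb than in Cg and 0 less (median 0.20, against 0.031 over all proximal windows), and 13 and 0 in 1Rb. Of the other 9 lists none had more than 1 higher window in 3Rb against Cg. Lower were 3 of 40 with zinc finger genes (7.5%), 3 of 58 with imprinted genes (5.17%), and 2 of 26 each with t complex genes and with meiosis and spermatid genes (7.69%), all near the 6.16% of all windows. NLRP and leukocyte receptor genes had 3 of 15 lower. Olfactory receptor, DNA damage, AKR1C and developmental lists had 0 lower.

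The inputs also differed in the same stretch, but each is 1 library, so strain and library cannot be told apart. The B6 input is shallow, with a counting error of 7.04% at a median proximal window. The label of the 1Rb_M input names the parents of the 1Rb_P cross. The 1Rb_M input stood above the B6 input by a median log2 of 0.29 there and above the Cg input by 0.15, against 0.056 and 0.015 in the rest of the segment. At Vmn2r50 the 1Rb_M, Cg and B6 inputs had 26.9, 15.6 and 15.9 CPM, and at Vmn2r44 22.26, 15.88 and 14.99. No input of 3Rb was analysed here, so a different number of receptor gene copies and a different amount of H3.3 cannot be told apart in these windows. γH2AX in this stretch was also higher in 3Rb than in 1Rb_P in 25 of 57 windows and lower in 1 (median 0.18). Vmn2r47 was at 11.41, 12.40 and 11.98 against 8.5, 8.7 and 9.2 CPM. Against 1Rb_M 14 windows were higher and 7 lower (median 0.094, and 0.33 without 1Rb_M 1 and 2). Vmn2r35 had 15.4, 15.7 and 15.8 against 12.7, 13.5 and 10.8 in 1Rb_M (0.34 ± 0.07 SE), and Vmn2r50 had less γH2AX in 3Rb, 13.1, 11.7 and 13.2 against 20.38, 20.88 and 14.99 (-0.56 ± 0.08 SE, and -0.24 ± 0.07 SE without 1Rb_M 1 and 2).

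Other windows with changed H3.3 often had inputs, of 1 library each, that differed too. The window of 9230019H11Rik at 3.1 Mb on chromosome 10 had 71.8, 66.0 and 67.7 CPM in 3Rb, 68.6, 68.7 and 67.5 in 1Rb and 131.6, 144.5 and 123.1 in Cg, a log2 difference of -0.96 ± 0.07 SE for each carrier group, and its inputs had 53.0 (1Rb_M), 83.6 (Cg) and 202.4 (B6) CPM. Zscan4c, a gene of early embryos and stem cells, fell by 0.30 in 3Rb and 0.46 in 1Rb against Cg, with inputs of 10.8, 17.4 and 14.3. Rps6ka2 with Tcp10a on 17 fell by 0.40 and 0.31, and the leukocyte receptor gene Pira2 with Gm15448 on 7 fell by 0.36 and 0.34. Rsph3b, a radial spoke gene of the sperm tail, fell by 0.31 in 3Rb, with inputs of 20.7, 22.0 and 21.0, which are close to each other. Dynlt1c with Dynlt1f on 17, dynein light chain genes of the t complex, rose by 0.30 and 0.31, with inputs of 34.8, 24.4 and 26.4. Smaller rises of 0.20 to 0.22 in 3Rb against Cg were called at Clvs1 on 4, Akr1c6 on 13 and Sema3d on 5.

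A few windows set the carrier groups apart in H3.3. Aurkc on chromosome 7, the Aurora kinase of meiosis, had 16.4, 17.3 and 16.3 CPM in 3Rb, 12.7, 12.8 and 13.3 in 1Rb (0.36 ± 0.05 SE, edgeR adjusted p = 5.44e-07), with inputs of 16.5, 17.7 and 16.5. A run of 2 called windows that overlaps Aurkc also had less H3.3 in 1Rb than in Cg (median log2 difference -0.22). The window of Akap9 and Cyp51 on chromosome 5, the second a sterol synthesis enzyme that is high in spermatids, had 28.8, 30.2 and 30.6 in 1Rb against 23.9, 23.2 and 22.9 in 3Rb and 25.4, 23.9 and 24.1 in Cg. The γH2AX of the same window was 22.3, 23.4 and 24.2 CPM in 1Rb_P and 21.5, 22.3 and 24.3 in 1Rb_M against 17.3, 18.1 and 17.5 in 3Rb. Both marks thus were lower there in 3Rb than in the 1Rb crosses, and the inputs of 1Rb_M, Cg and B6 were 20.9, 18.4 and 19.5. Lilra6 fell by 0.36 in 3Rb against 1Rb, while the rises at Shprh on 10 and Spata48 on 11, 0.17 each, had edgeR adjusted p of 0.0433 and 0.0498.

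The differences of both marks between 3Rb and the 1Rb_M cross went together window by window, most of all on chromosome 7. The γH2AX libraries (4 weeks) and H3.3 libraries (6 weeks) come from separate samples of the same crosses, which differ in both strain and translocation number. Across 1788 windows Pearson's r of the log2 differences was 0.44, and 0.84 across the 199 windows of chromosome 7. On the other 8 chromosomes it was 0.17 on 4 and 13, 0.21 on 17 and 0.38 to 0.51 on the rest. Of the windows called in both marks, 22 in all, 17 were higher and 5 lower in both, and 18 of the 22 lay on chromosome 7. On that chromosome 76 of 199 windows were called for γH2AX and 42 for H3.3, and over the 1788 windows 426 and 51. The joint count over all windows of the genome was not worked out. Whether the 22 exceed what separate calls would share was not tested. Without 1Rb_M 1 and 2, Pearson's r was 0.57 over these 1788 windows and 0.80 on chromosome 7. The 22 are 5.16% of the windows called for γH2AX and 43.1% of those called for H3.3.

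**Figure D5:**
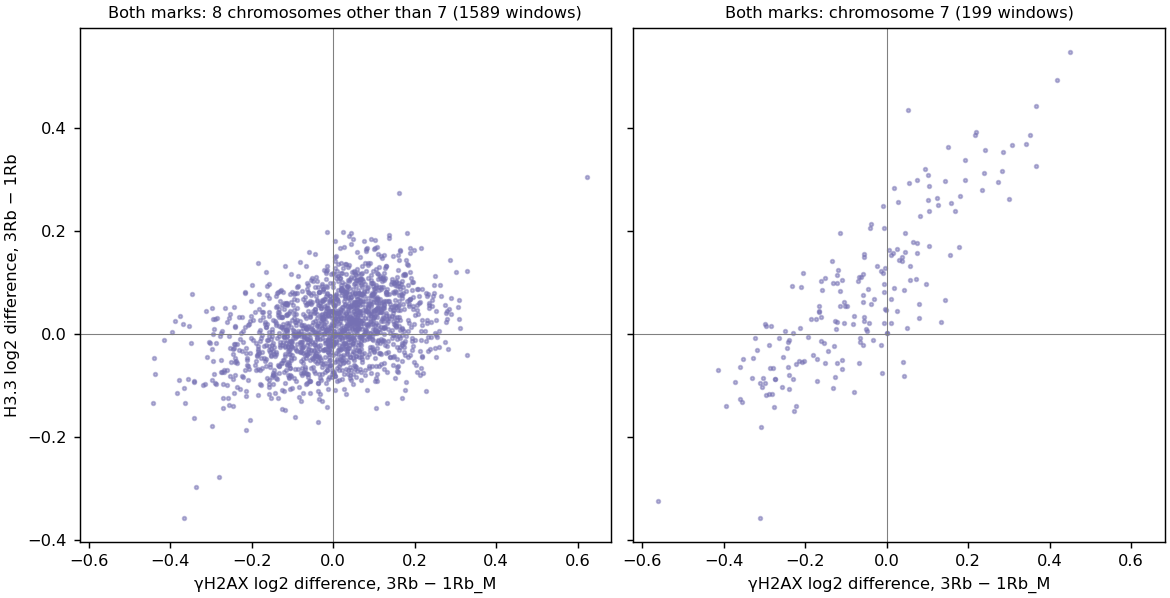
Log2 difference of 3Rb against the 1Rb_M cross for H3.3 (6 weeks) against that for γH2AX (4 weeks), a point for each proximal window of usual input, on the 8 chromosomes other than 7 (left) and on chromosome 7 (right). The points of chromosome 7 follow a line (Pearson's r 0.84), those of the others spread more widely.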

How the data were processed

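Whole-testis ChIP-seq for γH2AX (10 libraries), H3.3 (9 libraries) and input (3 libraries) was deposited by the authors as raw read counts per 50 kb window on mm10. CASAVA 1.8 and BWA are named in the submitters' processing notes; how reads with several matches or duplicates were treated is not given in the sources used here. The members and gene lists were chosen with earlier results of these data known.

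All windows whose counts averaged 10 or more across the 9 replicated libraries of a mark entered a quasi-likelihood test in edgeR 4.0.16 (R 4.3.3), scaled by TMM and adjusted by Benjamini-Hochberg over every window tested, and 40 segment sums likewise. Values in CPM are counts scaled by the TMM library size. Ratios within chromosomes were tested by exact permutation with scipy 1.17.1. DESeq2 1.42.0 was an alternative. Both kinds of test were tested on simulated counts. Windows were named by rule: per comparison and direction the 6 runs with the smallest adjusted p, at most 2 per chromosome, with up to 2 genes each and 3 members per list. Apart from list members, only called windows of usual input whose libraries did not overlap between the groups compared could be named. Groups follow the sample titles. Counting errors given in percent cover counting alone. SE values come from the edgeR fit and include the spread between libraries, and SD values give that spread.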

Additional observations from a re-analysis of the deposited data

How the results depend on the processing

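The count of 426 γH2AX windows called for 3Rb against 1Rb_M was 218 with DESeq2 and 744 with 1Rb_M 3 as the only library of its group, and 272 to 572 when single libraries were left out. The 2 segments called there were 0 with the replicate block, 5 with 1Rb_M 3 alone and 0 to 3 when single libraries were left out. Against 1Rb_P the 269 windows became 161 with library totals and 80 with DESeq2 (124 to 221 with a library left out), and the 2 segments became 0 with library totals (2 with any library left out). For 1Rb_P against 1Rb_M the 5 windows became 18 with library totals, 9 with RLE size factors, 2 with the replicate block and 137 with 1Rb_M 3 alone (0 to 336 with a library left out), and the 0 segments became 1 with 1Rb_M 3 alone (0 to 5). For H3.3 the windows ranged over 36 to 51 (1Rb against Cg), 83 to 131 (3Rb against Cg) and 29 to 108 (3Rb against 1Rb) when a library was left out. The segments were 2 with DESeq2 for 1Rb against Cg (0 to 1 with a library left out), and 1 with DESeq2 for 3Rb against 1Rb (0 with any library left out). For 3Rb against Cg the segments were 0 over 3 to 8 Mb or without vomeronasal windows, 4 with library totals and 2 with DESeq2 (1 with any library left out). Values that changed sign were chromosome 13 against 1Rb_M with library totals (-0.012), chromosome 6 against 1Rb_M with 1Rb_M 3 alone (0.051) and chromosome 11 against 1Rb_P with all windows kept (-0.073). Library totals moved the median γH2AX difference of all windows from 0.014 to -0.085 against 1Rb_M. The cause of these changes was not tested.

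The γH2AX ratio difference between 3Rb and the 1Rb crosses was 0.015 over 3 to 8 Mb and 0.058 with 1Rb_M 3 alone, and 0.045 to 0.054 with a library left out. The ranges with a library left out were -0.028 to -0.019 for 1Rb_P against 1Rb_M, 0.0009 to 0.019 for H3.3 of carriers against Cg, 0.015 to 0.036 for H3.3 of 3Rb against 1Rb, and 0.105 to 0.114 (γH2AX) and -0.265 to -0.255 (H3.3) against chromosomes 15, 16, 18 and 19. Of 65 named windows by comparison, 49 kept their call under every setting run and 0 changed sign. Named windows had to have libraries that did not overlap, so with a library left out the sign was largely fixed in advance.

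Same-numbered libraries of different groups did not deviate together (correlations from -0.33 to 0.32 for γH2AX and -0.57 to 0.14 for H3.3), so the numbers were not taken to pair them. With the number as a replicate block the window counts were 379, 223 and 2 for γH2AX and 36, 101 and 39 for H3.3.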
